A study of Mus musculus with 8 samples.

Results

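Genes that signal DNA damage, carry out homologous recombination or belong to the Fanconi pathway were followed in mouse embryonic stem cells. A Prmt5 knockout was compared with its control. The set was a list of 39 gene symbols, and 38 of them were found among the 38991 gene identifiers of the deposited files. Fanca was not analysed here. Each of the 38 genes was above 1 FPKM (fragments scaled to transcript length and to library total, a level that can be compared between genes) in all 8 libraries, so all 38 entered the test of 12462 genes. RNA was sequenced as paired reads of 100 bases from 4 libraries of the control genotype iPHet and 4 of the Prmt5 knockout iPKO, numbered 1 to 4 in each. The name iPHet reads as heterozygous for Prmt5, and none of the 8 libraries was labelled wild type. Both genotypes were male C57BL/6 stem cells from blastocysts of embryonic day 3.5, below passage 20 and held in 2i ground state medium, after derivation on fibroblast feeders with LIF and 0.5 µM PD0325901, a MEK inhibitor. Cells of both genotypes, controls included, were given 2 µM 4-hydroxytamoxifen over 48 hours, which induced the deletion at Prmt5, and then new medium. The labels name PC1 as the main iPHet line and PC4 as the main iPKO line, so genotype and line cannot be told apart. Whether libraries were separate cultures is not given. The p-values below therefore reflect only how far these libraries scatter, and part of that scatter may be technical.

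Homologous recombination repairs a broken chromosome by copying from the sister chromatid. The kinases ATM and ATR are called to the lesion and signal through CHEK2 and CHEK1, nucleases trim the ends, RPA coats the exposed strand, and BRCA2 with its partners prepares that strand to invade the sister duplex. Fanconi proteins act where an interstrand crosslink blocks a replication fork: a core complex attaches ubiquitin to FANCD2 and FANCI, and nucleases and recombination finish the repair. Embryonic stem cells cycle quickly, spend much of their time in S phase and rely strongly on recombination.

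The knockout was visible in the target gene. Prmt5 (ENSMUSG00000023110) was at 52.8, 70.8, 54.3 and 72.2 FPKM in iPHet libraries 1 to 4. In iPKO libraries 1 to 4 it was at 11.8, 14.5, 12.4 and 15.0 FPKM. It fell by 2.13 on the log2 scale (SE 0.13, limma adjusted p = 0.000171). The summed FPKM per library was 411827 to 458856, and the absolute depth is unknown. The cells carried stem cell markers: the summed level of 7 pluripotency genes was 1220 to 1482 FPKM in iPHet libraries against 1203 to 1318 FPKM in iPKO. Of these 7 genes Sox2 fell from 91.8 to 70.1 FPKM (limma adjusted p = 0.0054), and Esrrb did not overlap between genotypes but was not called. The 7 fibroblast feeder markers summed to 2.01 to 3.44 FPKM in iPHet and to 1.91 to 4.56 FPKM in iPKO. Of these 5 had a mean under 1 FPKM, and Lum and Postn were listed at 0 in every library. The 10 markers of differentiated lineages summed to 11.5 to 15.5 FPKM in iPHet and to 15.0 to 20.9 FPKM in iPKO. Of these 7 had a mean under 1 FPKM, and Eomes held the most, at 7.51 FPKM in iPHet and 12.2 FPKM in iPKO. None of the 3 tested was called. Eomes and Sox1 did not overlap between genotypes (limma adjusted p of 0.0567 and 0.0524), and Gata4 was at 2.77 and 2.68 FPKM. The 6 germ cell markers summed to 11.4 to 13.2 FPKM in iPHet and to 15.2 to 16.3 FPKM in iPKO, without overlap. Of 5 tested, 4 were called, where 15.8% of all tested genes were called. Ddx4 and Piwil2 rose by 0.52 and 0.44 on the log2 scale, and Dmc1, a meiotic recombination gene, fell by 0.53. Dazl rose by 0.81, from 0.876 FPKM in iPHet to 2.28 FPKM in iPKO. It reached the 1 FPKM needed for testing only in iPKO, where it was high, so its rise is partly selected. The part of these markers in the repair gene values was not tested. Libraries did not vary independently. Within a genotype, libraries 1 and 3, and libraries 2 and 4, differed across the repair genes with an SD of the log2 difference of 0.0714 to 0.144, against 0.26 to 0.303 between an odd- and an even-numbered library and 0.304 to 0.375 between genotypes. Results are therefore given over all 8 libraries and separately for odd- and even-numbered ones.

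The repair genes ranged from 2.10 FPKM for Fancf to 119 FPKM for Rpa1, with a median of 16.4 FPKM. These ends of the range sat at percentiles 14.9 and 95.5 of all tested genes. The top of the order held Rpa1, Mdc1 (68.8 FPKM), Rpa3 (49.3 FPKM), Topbp1 (48.7 FPKM) and Rpa2 (42.5 FPKM), so all of the RPA subunits were among the 5 genes above 40 FPKM. At the bottom, Fancf, Brip1, Fancb, Rad51c and Rad51b were the 5 genes below 5 FPKM. Rpa1 stood clear of its neighbours in every library, whereas Rpa3 and Topbp1 overlapped and could not be ordered.

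**Figure D1:**
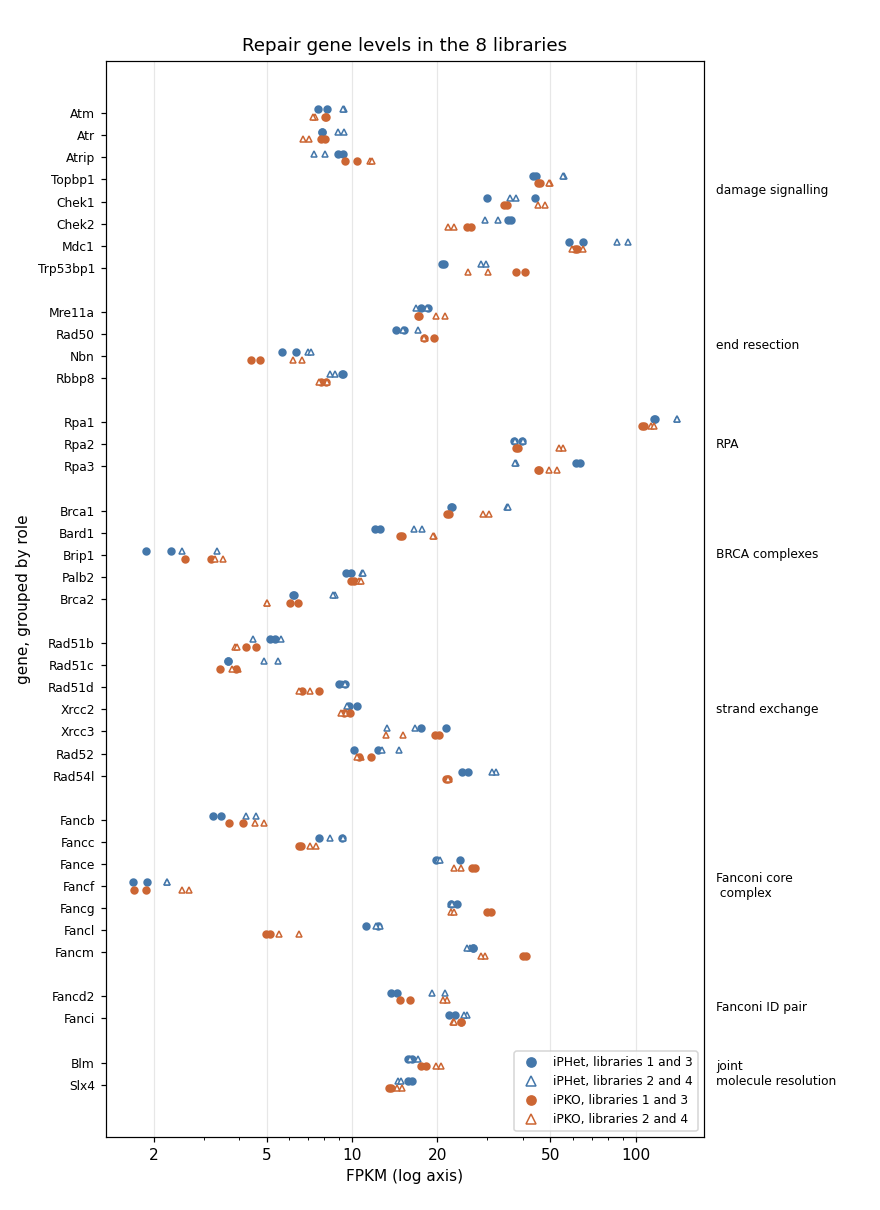
FPKM of each repair gene (log axis) in the 4 iPHet and 4 iPKO libraries, with filled circles for libraries 1 and 3 and open triangles for libraries 2 and 4. Fancl separates the genotypes most widely, at 11.2 to 12.6 FPKM against 4.98 to 6.50 FPKM, while genes such as Brca1 and Fancd2 separate odd from even libraries.

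Of the 38 repair genes 5 fell, 1 rose and 32 were not called by limma with Benjamini-Hochberg adjustment over all tested genes at 0.05. The genes that fell were Fancl, Chek2, Rad51d, Rad54l and Fancc, and Rad50 rose. The called share, 15.8%, equals the background: 15.8% of all tested genes were called, 6.3% higher and 9.53% lower. The median log2 change over the set was -0.04, as it was over all tested genes. Values of the genotypes did not overlap for 11 of the genes, 4 higher and 7 lower, where 25.1% of all tested genes had no overlap (10.1% higher and 15% lower). An exact two-sided permutation test gives p = 0.0286 for each gene without overlap, the smallest that 4 against 4 libraries allow. That test takes all 8 libraries as independent and does not allow for the likeness of the library pairs, so its p is too small if pairs are repeats. Fancl alone changed by more than 0.5 on the log2 scale, and 18 genes changed by less than 0.2.

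How library pairs and scaling were treated changed these calls. With an estimated correlation within the odd and the even pairs, limma called 0 of the 38 genes (5 at an unadjusted p under 0.05) where 0.417% of all genes were called. Averages of the paired libraries also gave 0 calls among the 38 (3 at an unadjusted p under 0.05), beside 0.0562% of all genes, or 0.0481% with an odd/even term. When only protein-coding genes entered the averaged fit with that term, Fancl was the 1 repair gene called (limma adjusted p = 0.0396), where 1.77% of genes were called. An odd/even term on all 8 libraries called 15 of the 38 (37.9% of all genes). The odd libraries alone called 13 (42.7%) and the even libraries alone 20 (36.8%). With the replicate number as a block 9 were called, 2 higher and 7 lower, against a background of 27.5%, 10.9% higher and 16.6% lower. Without the filter on low values 3 were called (9.02% of all genes), with a minimum of 5 FPKM 7 of 34 (18.4%), without the intensity trend 5 (15.7%) and with midpoints of the deposited bounds the same 6 (15.9%).

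Scaling each library to its median moved the split over all genes from 785 higher and 1188 lower to 930 higher (7.46%) and 818 lower (6.56%), 14% in all. The split over the repair genes moved from 1 higher and 5 lower to 4 and 3. Fancl, Chek2, Rad51d and Rad50 were called under that scaling, Rad54l and Fancc were not, and Atrip, Fance and Fancm were called higher (limma adjusted p of 0.0369, 0.0343 and 0.0397). Quantile normalization called 6 of the 38 (15.1% of all genes), and there too Rad54l and Fancc were not called while Atrip and Fance were.

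**Figure D2:**
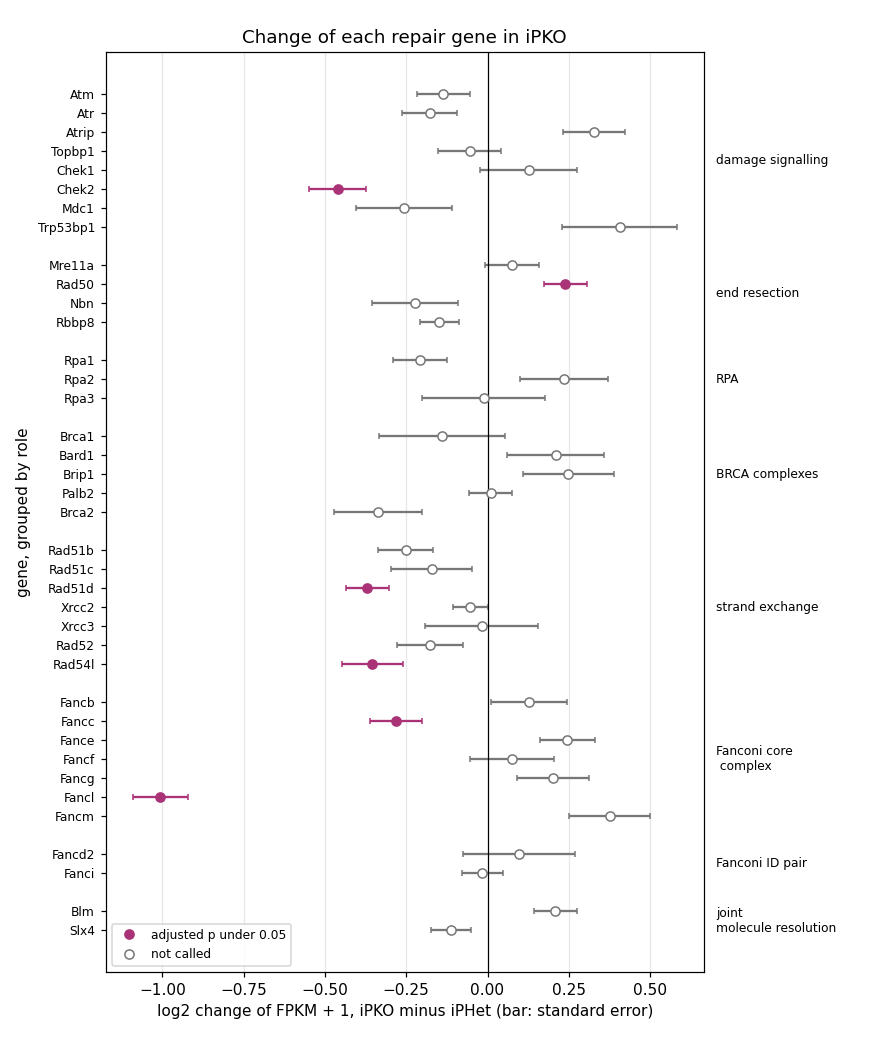
Log2 change of FPKM + 1, iPKO minus iPHet, for each repair gene grouped by role, with bars for the standard error and filled points for adjusted p under 0.05. The 6 filled points are Fancl at -1.01, Chek2 at -0.46, Rad51d at -0.37, Rad54l at -0.35, Fancc at -0.28 and Rad50 at 0.24.

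Among the damage signalling genes 1 of 8 fell, 0 rose and 7 were not called, where 15.8% of all tested genes were called. Chek2, the kinase that ATM activates at broken ends, is encoded on chromosome 5 from 110840017 to 110874133 of mm10. It was at 36.4, 32.7, 35.5 and 29.6 FPKM in iPHet libraries 1 to 4 and at 26.2, 22.8, 25.4 and 21.8 FPKM in iPKO. Every iPKO library was below every iPHet library, and within each genotype the odd-numbered libraries were the higher ones. Its mean went from 33.5 ± 3.10 to 24.1 ± 2.09 FPKM (SD, n = 4 each), a log2 change of -0.46 (SE 0.09, limma adjusted p = 0.012) that was -0.46 in the odd and in the even libraries alike. Chek2 shares no annotated position with another gene. All 8 of its values lay outside the authors' own confidence bounds, and with the midpoint of the bounds in place of FPKM its adjusted p in limma was 0.0122.

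Promoter sequence is shown for 3 of the genes that fell, as context for where their transcripts begin. Windows were the 250 bases before the RefSeq start site (build GRCm38.p6, the assembly of mm10), trimmed to the longest stretch with no annotated exon. Chek2 follows the rule for named genes, which asked for no overlapping gene, while Rad54l and Fancc were added after their values were seen. The Fancl window lies within an annotated exon and is not printed, and Rad51d and Rad50 are named only. Capitals mark matches, on either strand, to E2F sites (TTTCCCGC, TTTGGCGC, TTTCGCGC or TTTGCCGC), the CCAAT box (CCAAT) and the CHR element (TTTGAA or TTCGAA), all searched as these letters. The Fancc window precedes the RefSeq start used here, which lies inside the locus that the deposited files give for the gene. The Chek2 stretch is chr5:110839778-110839978 on the plus strand, the Rad54l stretch chr4:116123691-116123839 on the minus strand and the Fancc stretch chr13:63431746-63431995 on the minus strand, each printed 5′ to 3′ along its gene.
Chek2: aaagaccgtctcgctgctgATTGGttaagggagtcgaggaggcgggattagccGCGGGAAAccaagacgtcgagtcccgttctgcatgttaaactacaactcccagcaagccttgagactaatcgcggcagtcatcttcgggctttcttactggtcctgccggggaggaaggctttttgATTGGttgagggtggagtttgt
Rad54l: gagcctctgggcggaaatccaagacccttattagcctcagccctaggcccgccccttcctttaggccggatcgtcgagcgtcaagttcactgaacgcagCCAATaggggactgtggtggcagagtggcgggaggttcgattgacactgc
Fancc: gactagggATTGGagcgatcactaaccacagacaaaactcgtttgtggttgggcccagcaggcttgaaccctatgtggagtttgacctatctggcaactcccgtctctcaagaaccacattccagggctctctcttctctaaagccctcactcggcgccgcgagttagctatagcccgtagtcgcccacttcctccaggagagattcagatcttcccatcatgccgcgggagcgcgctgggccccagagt
Chek2 held 1 E2F match and 2 CCAAT matches, Rad54l and Fancc 1 CCAAT match each. In the whole windows of 250 bases, an E2F match was present in 6 of the 32 repair genes with a window (Topbp1, Chek2, Mdc1, Bard1, Brca2 and Fancg) and in 2.16% of 27025 genes. Of these 6 repair genes Chek2 was called and the other 5 were not. CCAAT was found in 20 of the 32 and in 37.5% of genes, and a CHR element in Atr and Bard1 and in 19.6% of genes. The 27025 genes were not limited to the 12462 tested ones, so they are not a like background for the repair genes, which were all expressed. These matches describe the letters only.

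The other signalling genes were not called. Mdc1, the scaffold that binds phosphorylated H2AX, was the most abundant at 65.0, 93.7, 58.0 and 85.9 FPKM in iPHet and 61.9, 65.4, 61.0 and 59.7 FPKM in iPKO. The even-numbered iPHet libraries were high and the other 6 lay close together, so the log2 change was 0.00 in odd and -0.51 in even libraries (limma adjusted p = 0.272). Atm and Atr were at 8.60 ± 0.865 and 8.51 ± 0.796 FPKM in iPHet and at 7.72 ± 0.431 and 7.40 ± 0.615 FPKM in iPKO (SD, n = 4 each), with a negative change in the even libraries only (-0.31 and -0.37, against 0.03 and 0.01). Atrip, which brings ATR to RPA-coated DNA, was at 9.26, 7.35, 8.94 and 8.02 FPKM in iPHet and 9.42, 11.6, 10.4 and 11.7 FPKM in iPKO. The genotypes did not overlap for Atrip, but the adjusted p from limma was 0.0523, and it overlaps Trex1 on the same strand, so reads can be exchanged. Trp53bp1, which restrains end resection, gave the widest gap between library pairs: in libraries 1 and 3 it averaged 20.9 FPKM for iPHet against 39.2 FPKM for iPKO, and in libraries 2 and 4 it averaged 29.1 and 27.9 FPKM. Trp53bp1 overlaps Tubgcp4 by 5490 bases on the other strand. The log2 change of Tubgcp4 was 0.46 in odd and -0.12 in even libraries, and whether reads were exchanged between them was not tested. Topbp1, the activator of ATR, was at 49.8 ± 6.65 and 47.6 ± 2.40 FPKM and Chek1, the kinase downstream of ATR, at 37.1 ± 5.91 and 40.7 ± 6.90 FPKM (SD, n = 4 each).

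**Figure D3:**
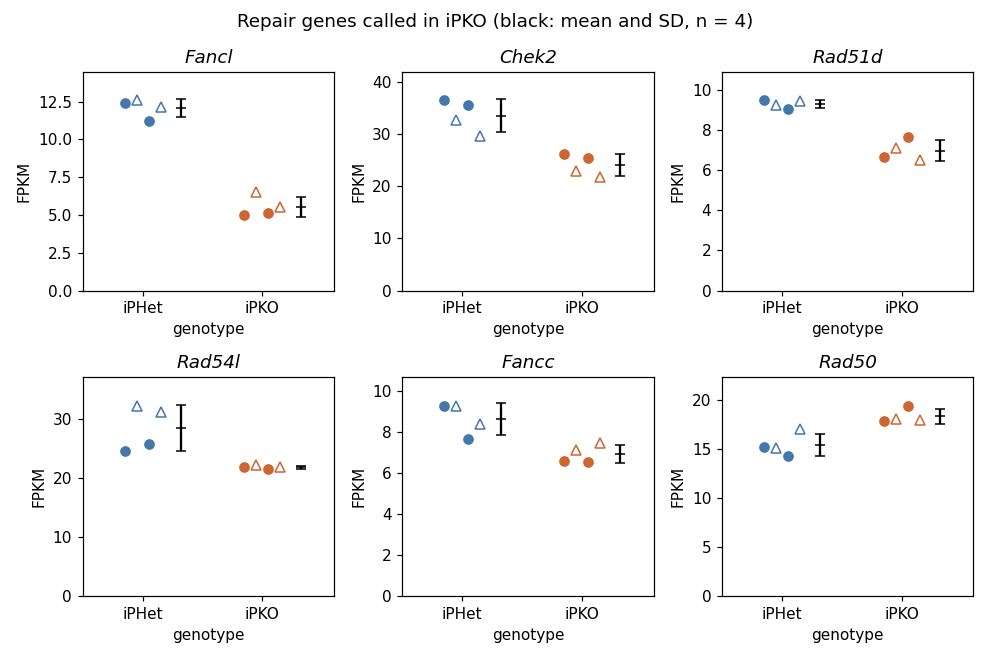
FPKM of the 6 called repair genes by library (linear axis from 0, filled circles for libraries 1 and 3, open triangles for 2 and 4), with the mean and SD of each genotype in black. No iPKO value overlaps an iPHet value in any panel, and the gap is widest for Fancl and narrowest for Fancc (iPHet 3 at 7.66 and iPKO 4 at 7.45 FPKM).

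Of the 4 end resection genes 1 rose, 0 fell and 3 were not called, where 6.3% of all tested genes rose and 15.8% were called. Rad50, the coiled-coil ATPase that tethers broken ends, lies on chromosome 11 from 53649519 to 53707319. It was at 15.3, 15.1, 14.3 and 17.05 FPKM in iPHet and at 17.9, 18.1, 19.5 and 17.96 FPKM in iPKO. The genotypes did not overlap, although iPHet 4 and iPKO 1 lay close together. The log2 change was 0.24 (SE 0.07, limma adjusted p = 0.0455), 0.32 in odd and 0.16 in even libraries. The replicate block ended this call (limma adjusted p = 0.0555), as did leaving out any 1 of the other 7 libraries than iPHet 4 (limma adjusted p of 0.0778 to 0.106). Its partners in the same complex were not called. Mre11a, the nuclease, was at 18.6, 18.5, 17.5 and 16.8 FPKM in iPHet and 17.2, 21.3, 17.2 and 19.8 FPKM in iPKO. Nbn, the subunit that binds ATM, was at 6.53 ± 0.695 and 5.503 ± 1.10 FPKM (SD, n = 4 each). Mre11a values overlapped between genotypes and Nbn had a negative log2 change of -0.22 (limma adjusted p = 0.285). Rbbp8, the CtIP protein that starts resection, had separate genotypes at 8.90 ± 0.441 and 7.93 ± 0.272 FPKM (SD, n = 4 each) without passing the test (limma adjusted p = 0.132).

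None of the 3 RPA genes was called (limma, 1 at an unadjusted p under 0.05). Rpa1, the large DNA-binding subunit, was at 117, 140, 116 and 139 FPKM in iPHet and at 107, 113, 105 and 116 FPKM in iPKO. All 4 iPKO libraries were below the lowest iPHet library, the highest of them only just, and the log2 change was -0.21 (SE 0.08, limma adjusted p = 0.13). The block gave Rpa1 a call (limma adjusted p = 0.0348), in a fit that called 27.5% of all genes. Rpa1 was also called in the odd and in the even libraries taken alone (limma adjusted p of 0.0216 and 0.0116). Those fits compare 2 with 2 alike libraries and called 42.7% and 36.8% of all genes. With an estimated correlation within library pairs Rpa1 was not called (limma adjusted p = 0.454). The smaller subunits had a different pattern over the libraries. Rpa2 was at 38.5 and 38.2 FPKM in the odd libraries of iPHet and iPKO and at 38.9 and 54.6 FPKM in the even ones. Rpa3 had opposite changes in the pairs, from 62.7 to 45.5 FPKM in odd and from 37.7 to 51.1 FPKM in even libraries.

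The BRCA genes were likewise not called, 0 of 5 by limma and 1 at an unadjusted p under 0.05. Brca1, the ubiquitin ligase that promotes resection and loads PALB2, was at 22.3, 35.1, 22.5 and 35.4 FPKM in iPHet and at 21.9, 30.3, 21.6 and 29.0 FPKM in iPKO. The numbering of the libraries separated these values more than the genotype did. Bard1, the obligate partner of BRCA1, showed the same order, at 12.4 and 17.1 FPKM in odd and even iPHet libraries and 14.9 and 19.4 FPKM in iPKO. The block gave it a call in the higher direction (limma adjusted p = 0.0262 against 0.378). Palb2, which bridges BRCA1 and BRCA2, was the steadiest, at 10.3 ± 0.714 and 10.4 ± 0.385 FPKM (SD, n = 4 each). Brca2, the mediator that displaces RPA, was at 6.26, 8.73, 6.19 and 8.57 FPKM in iPHet and at 6.47, 5.02, 6.06 and 5.02 FPKM in iPKO. The iPKO values were low in the even libraries (log2 change -0.68) and level with iPHet in the odd ones (0.01), and over all 8 the adjusted p in limma was 0.128. Brip1, a helicase of BRCA1 and the Fanconi pathway, was low at 2.51 ± 0.612 and 3.14 ± 0.396 FPKM (SD, n = 4 each).

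**Figure D4:**
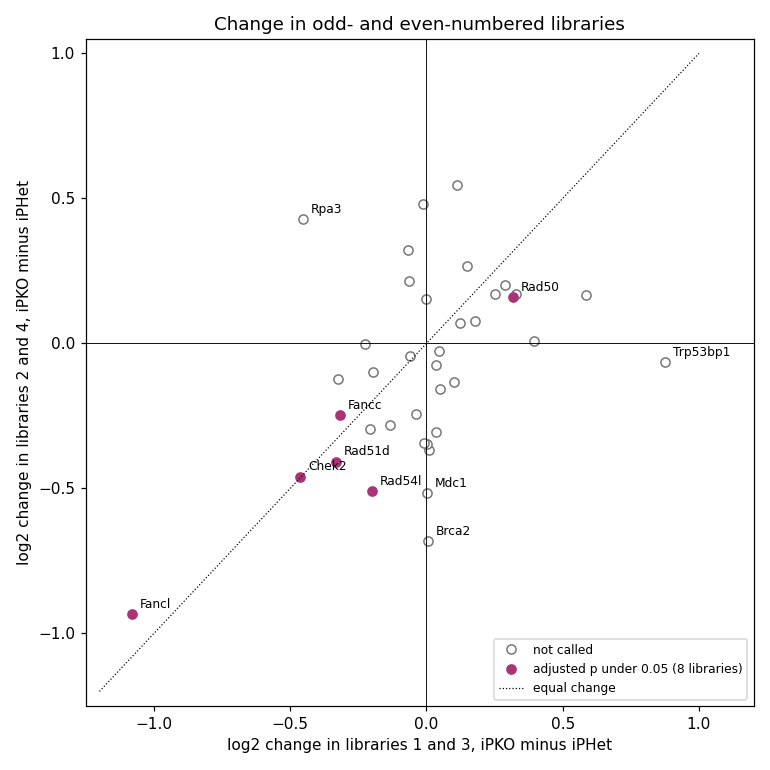
Log2 change of each repair gene in libraries 1 and 3 (horizontal axis) against that in libraries 2 and 4 (vertical axis), iPKO minus iPHet, with filled points for genes called over all 8 libraries and a dotted line of equal change. The 5 genes that fell lie below 0 on both axes and Rad50 above 0 on both, and Trp53bp1, Rpa3, Brca2 and Mdc1 lie farthest from it.

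All 7 genes of strand exchange (Rad51b, Rad51c, Rad51d, Xrcc2, Xrcc3, Rad52 and Rad54l) had a negative log2 change, from -0.02 to -0.37, with a median of -0.18, as had 7055 of all 12462 tested genes. Xrcc3 turned to 0.03 under quantile normalization and under median scaling, and was at 0.04 in the odd libraries, where Rad51c was at 0.00. In 5 of the 7 the odd and even libraries had the same sign. Of the 7 genes 2 fell and 5 were not called, where 9.53% of all tested genes fell and 15.8% were called. Rad51d, a subunit of the BCDX2 complex that assists strand exchange, was at 9.47, 9.23, 9.03 and 9.42 FPKM in iPHet and at 6.66, 7.10, 7.67 and 6.49 FPKM in iPKO. The iPHet libraries were within 0.5 FPKM of each other and all above the iPKO libraries. Rad51d (chromosome 11, 82876434 to 82890614, no overlapping gene) fell by 0.37 on the log2 scale (SE 0.07, limma adjusted p = 0.00921), with changes of -0.33 in odd and -0.41 in even libraries. Rad54l, the translocase that helps the strand invade the sister duplex, was at 24.4, 32.2, 25.6 and 31.1 FPKM in iPHet and at 21.8, 22.1, 21.5 and 21.8 FPKM in iPKO. The iPKO libraries were almost level, and the even iPHet libraries stood highest. Rad54l (chromosome 4, 116094264 to 116123690) had a log2 change of -0.35 (SE 0.09, limma adjusted p = 0.0382), -0.20 in odd and -0.51 in even libraries. Rad54l was not called without iPHet 2, iPHet 4 or any 1 of the iPKO libraries (limma adjusted p of 0.0765 to 0.0935). It shares 2780 bases with Lrrc41 on the other strand, which was at 6.70 ± 0.832 and 6.18 ± 0.983 FPKM (SD, n = 4 each).

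The remaining genes of this role were not called. Rad51b and Rad51c, both in complexes with RAD51D, were at 5.15 ± 0.494 and 4.42 ± 0.924 FPKM in iPHet and at 4.16 ± 0.332 and 3.77 ± 0.250 FPKM in iPKO (SD, n = 4 each). The block gave Rad51b a call in the lower direction (limma adjusted p = 0.0497). Xrcc2, the last BCDX2 subunit, was at 9.87 ± 0.363 and 9.48 ± 0.274 FPKM, Xrcc3, the partner of RAD51C, at 17.2 ± 3.38 and 17.03 ± 3.44 FPKM and Rad52, which anneals single strands, at 12.5 ± 1.84 and 10.9 ± 0.576 FPKM (SD, n = 4 each). Xrcc3 shares 4653 bases with Klc1.

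The Fanconi core complex held the largest change of the set. Fancl, the ubiquitin ligase subunit that modifies FANCD2 and FANCI, was at 12.4, 12.6, 11.2 and 12.2 FPKM in iPHet and at 4.98, 6.50, 5.12 and 5.54 FPKM in iPKO. Each iPKO library was far below the lowest iPHet library, and the iPKO mean was 45.8% of the iPHet mean. Fancl (ENSMUSG00000004018, chromosome 11, 26386135 to 26471876) fell by 1.01 on the log2 scale (SE 0.09, limma adjusted p = 0.000592), with changes of -1.08 in odd and -0.93 in even libraries. A called fall of at least 2-fold was found for 50 of the 12462 genes (0.401%). With the estimated correlation within library pairs Fancl was not called (limma adjusted p = 0.0644), nor with averages of all genes and an odd/even term (0.203). Fancl shares its last 555 bases with the kinase gene Vrk2 on the other strand, whose level went from 4.85 ± 0.716 to 5.02 ± 0.519 FPKM (SD, n = 4 for both), and contains the pseudogene Gm12713 on its own strand.

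Fancc, another core subunit, fell less. It was at 9.24, 9.28, 7.66 and 8.37 FPKM in iPHet and at 6.60, 7.10, 6.53 and 7.45 FPKM in iPKO, where iPHet 3 and iPKO 4 lay close together without overlap. Fancc (chromosome 13, 63304709 to 63497278) had a log2 change of -0.28 (SE 0.08, limma adjusted p = 0.047), -0.32 in odd and -0.25 in even libraries. Leaving out any 1 of the other 7 libraries than iPHet 3 ended the call (limma adjusted p of 0.0607 to 0.111). Fancc overlaps 2010111I01Rik on the other strand, so its reads can be exchanged.

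The other 5 core genes were not called. Their changes were positive over all 8 libraries, but Fance turned to -0.13 with the midpoint of the deposited bounds, outside which 4 of its values lay, and Fancf was at 0.00 in the odd libraries. Fancm, the translocase that anchors the core complex to DNA, was at 26.8, 26.1, 26.7 and 25.4 FPKM in iPHet and at 41.1, 29.5, 40.2 and 28.6 FPKM in iPKO. All 8 Fancm values lay outside the deposited bounds, and with the midpoint of the bounds its adjusted p in limma was 0.0732. The genotypes did not overlap, but the odd iPKO libraries stood well above the even ones, and the log2 change was 0.59 in odd and 0.17 in even libraries (limma adjusted p = 0.0793 over all 8). Fancg, a scaffold of the core complex, had the same split, at 22.9 and 30.4 FPKM in odd libraries of iPHet and iPKO and 22.5 and 22.6 FPKM in even ones. Fance, the bridge from the core complex to FANCD2, was at 21.1 ± 2.00 and 25.2 ± 2.00 FPKM (SD, n = 4 each, limma adjusted p = 0.0859). Fancb, another core subunit, was at 3.88 ± 0.644 and 4.31 ± 0.513 FPKM and Fancf, a small adaptor, at 2.01 ± 0.265 and 2.19 ± 0.472 FPKM (SD, n = 4 each).

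The substrates of FANCL were not called. Fanci was at 21.9, 25.5, 23.2 and 24.8 FPKM in iPHet and at 24.2, 22.8, 24.2 and 22.9 FPKM in iPKO, a log2 change of -0.02 (SE 0.06, limma adjusted p = 0.885). Fancd2 was at 14.1 and 20.2 FPKM in odd and even iPHet libraries and at 15.4 and 21.3 FPKM in iPKO, so library numbering again set the order (limma adjusted p = 0.748). Fanci shares 4034 bases with Polg, and Fancd2 257 bases with Fancd2os. Of Fanci and Fancd2, limma called 0 and 0 were at an unadjusted p under 0.05.

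Of the genes that resolve joined molecules, Blm and Slx4, neither was called. Blm, the helicase that dissolves crossed strands, was at 16.3, 17.1, 15.8 and 16.0 FPKM in iPHet and at 18.2, 20.5, 17.6 and 19.8 FPKM in iPKO. The genotypes did not overlap, and the log2 change of 0.21 (SE 0.07) had a limma adjusted p = 0.0658, or 0.0306 with the replicate block, where it was called. Slx4, the scaffold of crosslink nucleases, was at 15.4 ± 0.818 and 14.1 ± 0.688 FPKM (SD, n = 4 each).

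Library numbering moved many of these genes in both genotypes. In 18 of the 38 the even-numbered libraries were higher than the odd-numbered ones in iPHet and in iPKO, in 8 they were lower in both, and in 12 the order differed between genotypes. Brca1, Fancd2, Bard1 and Brip1 were among the 18, and the gap for Brca1 was 0.63 in iPHet and 0.43 in iPKO on the log2 scale. The summed level of 23 replication genes moved the same way, at 1562 and 1864 FPKM in odd and even iPHet libraries and 1338 and 1731 FPKM in iPKO, and 16 mitosis genes summed to 1105 and 1273 FPKM in iPHet libraries against 934 and 1137 FPKM in iPKO. Their part in the repair gene values was not tested. The genotype change had the same sign in odd and even libraries for 23 of the 38 genes (60.5%), where 64% of all tested genes did. It differed by more than 0.5 on the log2 scale in 4 genes, Trp53bp1, Rpa3, Brca2 and Mdc1, and whether the pairs differ beyond error was not tested.

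Genes outside the set but of the same processes were called in both directions. Of 37 other recombination and Fanconi genes 5 fell, 1 rose and 31 were not called, a called share of 16.2% beside 15.8% of all tested genes. Slx1b, the nuclease that SLX4 holds, fell to 3.69 ± 0.550 FPKM from 7.38 ± 1.33 FPKM (SD, n = 4 each, limma adjusted p = 0.0054). C230052I12Rik, the file's name for Faap24, the partner of FANCM, fell from 5.90 ± 0.470 to 3.55 ± 0.266 FPKM (SD, n = 4 each). Stra13, a histone-fold protein also tied to FANCM, fell by 0.35 on the log2 scale, and Tonsl, which binds new histones at forks, rose by 0.45. Of 20 other signalling genes 2 rose and 2 fell: Fam175a, the scaffold of the BRCA1-A complex, rose from 7.14 ± 0.374 to 10.53 ± 0.467 FPKM, and Rad1, of the checkpoint clamp, from 26.8 ± 1.10 to 34.3 ± 3.15 FPKM (SD, n = 4 each). Babam1, also of BRCA1-A, fell by 0.29 and H2afx by 0.41 on the log2 scale. Rif1 and Rad9a were listed at 0 in every library and were not tested, and Claspn was not analysed here.

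Other repair pathways gave 3 called of 13 end joining genes (1 higher and 2 lower) and 1 of 7 mismatch repair genes. Poll, a gap-filling polymerase, rose by 0.46, and Nhej1 and Lig3 fell by 0.38 and 0.49 on the log2 scale. Msh3, of mismatch recognition, fell by 0.26. Ercc5, the nuclease of nucleotide excision repair, rose to 22.4 ± 1.21 FPKM from 13.7 ± 1.69 FPKM (SD, n = 4 each). Lig1, the ligase that seals excision patches, fell by 0.26. Of 23 replication genes 3 fell (Tk1, Gins4 and Gins3) and of 16 mitosis genes 3 fell (Mki67, Cdc20 and Ccnb2), with 0 higher in either list, so 13% and 18.8% were called where 9.53% of all genes fell and 15.8% were called. The replicate block called 9 replication genes lower, in a fit that called 16.6% of all genes lower. Scaling to the library median called 1 replication and 0 mitosis genes, where it called 14% of all genes. Of 15 p53 damage targets 5 rose and 0 fell, at a median log2 change of 0.23, led by Aen, Pmaip1, Mdm2 and Polk, where 6.3% of all tested genes rose. With an estimated correlation within library pairs limma called 0 genes in each of the lists of this and the preceding paragraph, with 5 p53 targets, 4 mitosis genes, 2 replication genes and 2 other recombination and Fanconi genes at an unadjusted p under 0.05. Median changes were -0.07 for the other recombination and Fanconi genes, -0.21 for replication and -0.19 for mitosis, beside -0.04 for all tested genes.

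**Figure D5:**
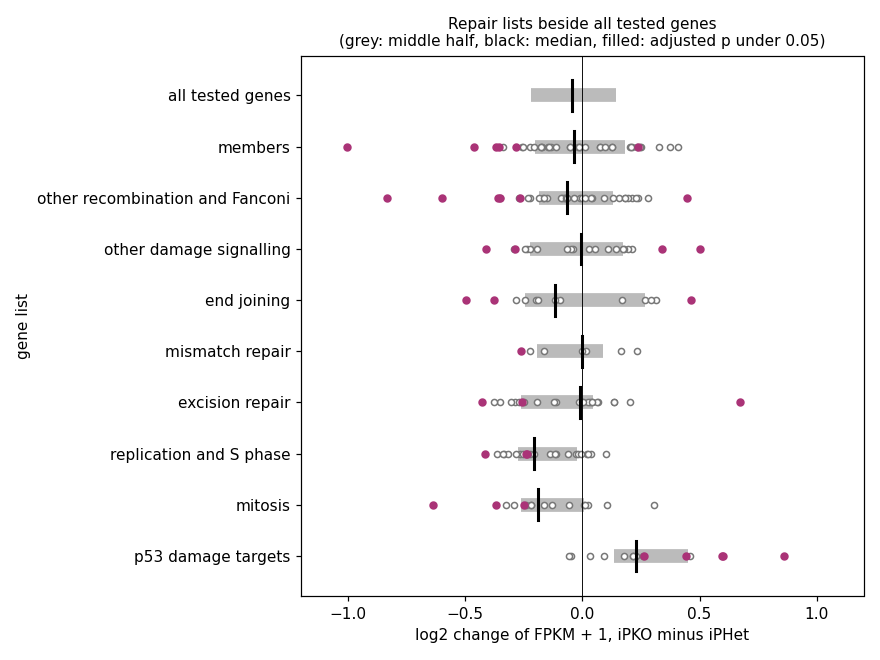
Log2 change of FPKM + 1, iPKO minus iPHet, for the repair genes (members) and the other gene lists, 1 point per gene and filled where called, with the median in black and the middle 50% in grey. The repair genes centre at -0.04 like all tested genes, the p53 targets centre at 0.23, and Fancl is the lowest point of any list.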

How the data were processed

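The authors deposited 1 file per library, holding an FPKM for every gene between a low and a high confidence bound, per the file headers. Trimmomatic and the mm10 assembly are named, per the submitters' processing notes. Neither aligner nor FPKM program is given in the sources used here. Each file held 39013 rows for 38991 identifiers, and the rows of 19 identifiers at more than 1 locus were summed. In 12 of the 38 genes some deposited FPKM lay outside its bounds (80 of 304 values). These were all 8 values of Atr, Topbp1, Chek2, Brca2, Fancf, Fancm, Fancd2 and Fanci, and 4 values each of Chek1, Bard1, Fance and Fancg.

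Values were log2(FPKM + 1), a scale that understates changes of weakly expressed genes. Those averaging 1 FPKM or more in one genotype at least were fitted with limma 3.58.1 (R 4.3.3, intensity trend, all 8 libraries, no covariate), and an adjusted p under 0.05 was a call. The fit was tested on simulated data in which all 8 libraries were independent. That test therefore does not cover the likeness of the library pairs (estimated correlation 0.839). The repair genes, gene lists and tests were chosen with earlier results of these data known. Named in full were called genes and the most abundant of each role, and of the other lists up to 4 called genes. The motif searches and the choice of alternatives by library pair were also made after earlier results.

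Deviations from the genotype means correlated between same-numbered libraries at 0.104, 0.162, 0.204 and 0.107, so the replicate block is given beside results whose call it changes. The reported fit has no block, and the labels state no pairing. Overlaps were read from GENCODE vM21; promoters of 32 genes matched RefSeq by symbol. A gene named by the rule is not reported here.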

Additional observations from a re-analysis of the deposited data

Results flagged for a closer look

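Among 76 groups of 4 libraries (38 repair genes in 2 genotypes) 1 held a library far from the other 3. Rad50 was at 19.5 FPKM in iPKO 3, while the other iPKO libraries lay between 17.9 and 18.1 FPKM. Chance flags about 1 in 20 groups of 4 independent libraries, and the rate for the alike pairs of these groups is not known. Without iPKO 3 the adjusted p of Rad50 in limma was 0.106 and it was not called.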

How the results depend on the processing

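Fancl, Chek2 and Rad51d were called lower under both other pseudocounts, both other low-value filters, both other scalings, the replicate block, the odd/even term, no intensity trend, the midpoint of the deposited bounds and without any single library. They were not called when library pairs were averaged or given an estimated correlation, except Fancl in the protein-coding fit, and Rad51d was not called in the odd libraries alone (limma adjusted p = 0.0503). The count of 6 repair genes became 3 with no filter on low values, 15 with an odd/even term, 13 in the odd and 20 in the even libraries alone, 1 with protein-coding pair averages and an odd/even term, and 0 with pair averages (with or without the term, 3 at an unadjusted p under 0.05 in each) or an estimated correlation (5). Leaving out 1 library gave 3 to 6 repair genes, with 3 in the absence of iPHet 2, iPKO 2, iPKO 3 or iPKO 4. The count of 1973 over all genes became 1981 with no filter on low values, 4729 with an odd/even term, 5316 in the odd and 4581 in the even libraries alone. It became 198 with protein-coding pair averages and the term, 6 with pair averages and the term, 7 without it and 52 with the estimated correlation. It was 3427 with the replicate block and 1270 to 1485 with 1 library left out, the lowest without iPHet 4. The tests within odd or even libraries compare 2 with 2 alike libraries. The block ended the call of Rad50 and added Rpa1, Bard1, Rad51b and Blm, and changed no other repair gene's call. Of the genes with a sign change, Rpa3 was called at 0.43 in the even libraries against -0.01 over all 8. The median change of the set moved by less than its SD between libraries (0.0786) under every alternative run, with -0.05 to -0.03 when 1 library was left out, and had the opposite sign at 0.01 under both scalings and at 0.0019 in the odd libraries alone. Depth is unknown, so counting error cannot be given for any gene.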
